A study of Oryza sativa with 9 samples.

Results

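Expansins are small secreted proteins that loosen the plant cell wall without cutting its polymers, and they act best in an acidified wall, where they let turgor extend the cell. Plant genomes hold an α-expansin family (*EXPA*) and a β-expansin family (*EXPB*). In grasses both act in vegetative growth, and one group of β-expansins is known from pollen. The size of the spikelet hull, which sets the space a rice grain can fill, depends on how many hull cells are made and on how far they expand. Transcript levels of 10 rice expansin genes are described here in young panicles that differ in *GSE9*, a gene of rice grain shape. They were chosen by identifier and not by their values, and are 10 of the 37863 genes in the table. The 6 *EXPA* genes lie on chromosomes 1, 2, 3, 4 and 5, and the 4 *EXPB* genes on chromosome 10.

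Panicles came from plants of 3 genotypes, all in the japonica variety Zhonghua11 (ZH11). ZH11-OE-1 overexpressed *GSE9*, with its coding sequence driven by a *ubiquitin* promoter, and ZH11-Cas9-1 was a *GSE9* knockout made with CRISPR/Cas9. Untransformed ZH11 was the wild type. Each transgenic genotype was 1 line, so a difference belongs to that line, and the labels place sampling before heading. Each genotype had 3 libraries, made as independent repeats. The row of *GSE9* itself could not be told from its identifier, so its own level was not analysed here. Each panicle sample is a mixture of cell types, in which fewer cells of a type and less RNA per cell cannot be told apart.

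Quantitative PCR primers were designed for *EXPA1*, *EXPB3* and *EXPB4*. They are shown because these levels can be measured again with them. Each is written 5′ to 3′, with the last 5 bases at the 3′ end, where extension starts, in capitals.
EXPA1 forward: tgacgcttcaggaaCGATG
EXPA1 reverse: ctggtagtcgcacatGATCC
EXPB3 forward: ttggagtggtggcagCTATC
EXPB3 reverse: gtggtacttggaaacGGGGT
EXPB4 forward: gtcggtctgtgttgcgATTTG
EXPB4 reverse: cctccatttcccacacAGCTT

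Levels were deposited as FPKM, fragments per kilobase of transcript scaled to the fragments counted in the library. Summed FPKM differed, at 635209 to 650991 in ZH11-OE-1, 679258 to 701261 in ZH11-Cas9-1 and 651917 to 676384 in ZH11. Comparisons of FPKM between libraries therefore depend on the scaling. The FPKM of the tested genes turned back into whole reads in all libraries, with 14909664 to 16405688 reads per library in ZH11-OE-1, 14227327 to 16020640 in ZH11-Cas9-1 and 15114155 to 15747992 in ZH11. Of the 10 genes, 9 averaged 1 FPKM or more and entered the limma test, which ran on 21780 genes. *EXPB2* did not. No library stood apart in depth, the deepest holding 1.15 times the reads of the shallowest.

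β-Expansins of chromosome 10 made up most of the expansin signal measured. *EXPB3* (Os10g0555900), a β-expansin known from gibberellin-responsive rice internodes, averaged 300.5 ± 30.5 FPKM in ZH11-OE-1, 353 ± 15.2 FPKM in ZH11-Cas9-1, and 354 ± 12.4 in ZH11 (SD, n = 3 each). *EXPB4* (Os10g0556100), its neighbour on the chromosome, averaged 189 ± 4.92, 206 ± 1.67 and 188 ± 9.28 FPKM in the same order of genotypes. Together these 2 genes held 75.2% of the summed FPKM of the 10 genes in ZH11-OE-1, against 72.6% in ZH11-Cas9-1 and 71.1% in ZH11.

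Below them stood 3 α-expansins between 33.4 and 96.2 FPKM in their genotype means: *EXPA2*, *EXPA4* and *EXPA7*. *EXPA10*, *EXPA5* and *EXPB6* lay between 5.44 and 16.9 FPKM, *EXPA1* between 1.39 and 2.62 FPKM, and *EXPB2* was close to 0. The order of levels was not the same in the 3 genotypes. In ZH11, *EXPA2*, *EXPA4* and *EXPA7* followed each other with no overlap of their libraries. In ZH11-Cas9-1 the libraries of *EXPA4* overlapped with those of *EXPA2* above it and of *EXPA7* below it, while those of *EXPA2* and *EXPA7* did not overlap. In ZH11-OE-1 *EXPA4* came first, and *EXPA7* and *EXPA2* overlapped below it. *EXPB3* stayed above *EXPB4*, and both above every α-expansin measured, in all 9 libraries.

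**Figure D1:**
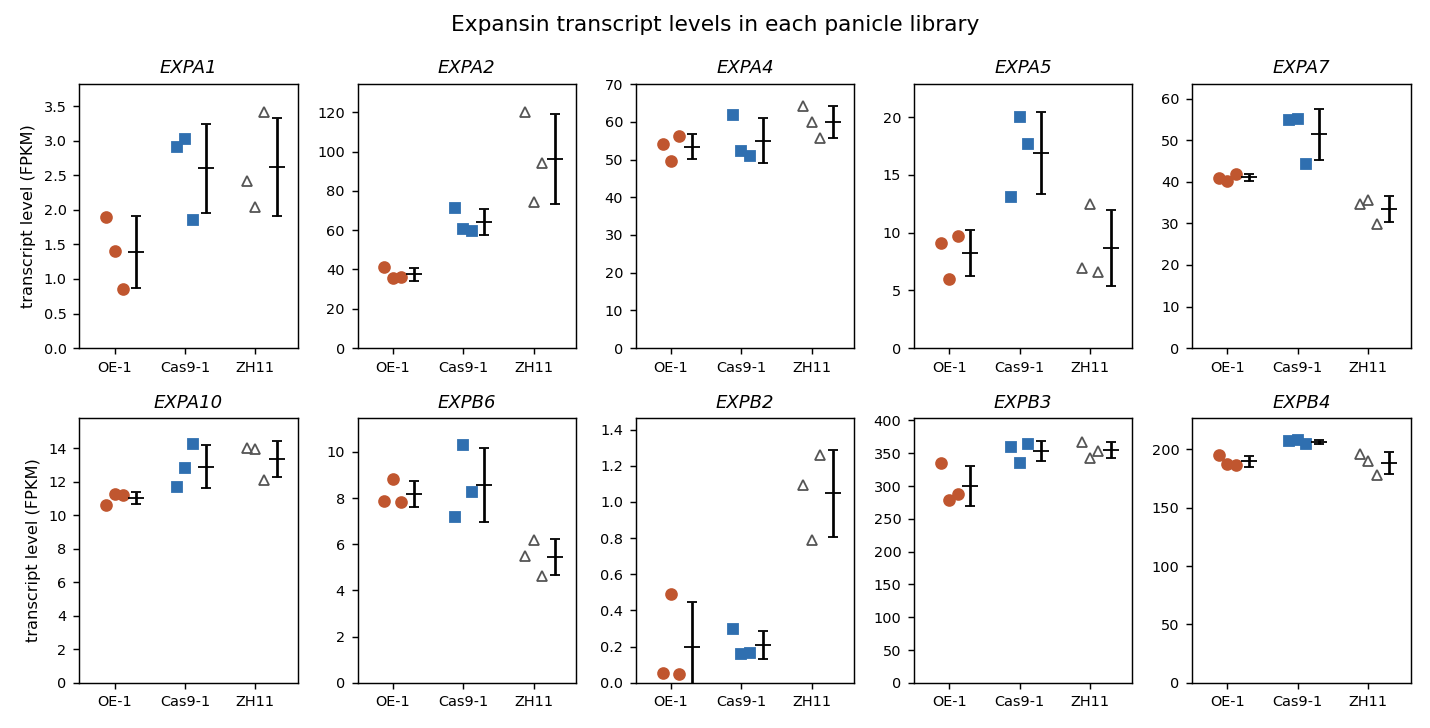
FPKM of the 10 expansin genes in each library, 1 panel per gene, with the level in FPKM on the vertical axis and ZH11-OE-1, ZH11-Cas9-1 and ZH11 from left to right (points, libraries; bars, mean ± SD of 3; the lower bar of *EXPB2* in ZH11-OE-1 is stopped at 0). *EXPA2* is lowest in ZH11-OE-1, at 35.4 to 41.4 FPKM, between in ZH11-Cas9-1, at 59.5 to 71.5 FPKM, and highest in ZH11, at 74.2 to 120.3 FPKM.

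Overexpression of *GSE9* was first compared with ZH11. Past the test were 2 of the 9 tested expansins, *EXPA2*, which fell, and *EXPB6*, which rose. Of all 21780 tested genes 13.8% passed in this comparison, 2179 lower and 820 higher. In the knockout line against ZH11, 4 of 9 passed, with *EXPA5*, *EXPA7* and *EXPB6* higher and *EXPA2* lower, where 8.60% of all tested genes passed, 1090 higher and 782 lower. Between ZH11-OE-1 and ZH11-Cas9-1, 2 of 9 passed, *EXPA2* and *EXPA5*, both lower in ZH11-OE-1, where 23.9% of all tested genes passed, 1761 higher and 3437 lower. Both comparisons with ZH11 use the same 3 ZH11 libraries. The median log2 fold change of the 9 genes was -0.16 in ZH11-OE-1 against ZH11, -0.01 in ZH11-Cas9-1 against ZH11 and -0.24 in ZH11-OE-1 against ZH11-Cas9-1, beside -0.04, -0.02 and -0.03 over all tested genes. The sign of the median in ZH11-Cas9-1 against ZH11 was not stable, since it was 0.0053 after median-of-ratios rescaling, 0.14 without ZH11-Cas9-1 replicate 3 and 0.097 without ZH11 replicate 3.

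Scaling bears on the direction of calls over all genes. In ZH11-OE-1 against ZH11, 27.3% of calls were higher, and this share was 40.9% after median-of-ratios rescaling and 40.3% after quantile normalization. In ZH11-OE-1 against ZH11-Cas9-1 it was 33.9%, and 44.1% and 51.3% under the same rescalings. The direction of each call on an expansin gene stayed the same under both. Median-of-ratios rescaling ended the *EXPA2* call in ZH11-Cas9-1 against ZH11 (limma adjusted p = 0.0581).

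*EXPA2* (Os01g0823100, chromosome 1), an α-expansin, was called in all 3 comparisons, the only one of the 9 tested expansins that was. It had 41.4, 35.4 and 36.1 FPKM in ZH11-OE-1, 71.5, 60.8 and 59.5 FPKM in ZH11-Cas9-1, and 120.3, 74.2 and 94.1 FPKM in ZH11. No libraries of any pair of genotypes overlapped, and ZH11 spread the most. Its mean in ZH11-OE-1 was 0.391 times that in ZH11, and the log2 fold change was -1.31 (SE 0.15, 95% interval -1.65 to -0.97, limma adjusted p = 0.00130). This call was kept in 16 of 16 alternatives.

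In ZH11-Cas9-1, *EXPA2* was 0.665 times its ZH11 level, and the log2 fold change was -0.56 (SE 0.15, limma adjusted p = 0.0494). That call lies at the threshold and was kept in 6 of 16 alternatives. It was lost without ZH11-Cas9-1 replicate 1, 2 or 3 (adjusted p = 0.0583, 0.163 and 0.126) and without ZH11 replicate 1 or 3 (adjusted p = 0.103 and 0.127). Further losses came with a pseudocount of 0.1 (limma adjusted p = 0.0528), no minimum (0.0846) and median-of-ratios rescaling (0.0581). A fit of those groups alone (0.0969) and a fit with no trend (0.0705) lost it too. The transgenic lines also differed from each other in *EXPA2*, ZH11-OE-1 being 0.589 times ZH11-Cas9-1, and the log2 fold change was -0.75 (SE 0.15, limma adjusted p = 0.00800). This last call was kept in 16 of 16 alternatives.

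*EXPA7* (Os03g0822000, chromosome 3), an α-expansin known in rice for a role in salt tolerance, was higher in the knockout line. It had 54.8, 55.1 and 44.3 FPKM in ZH11-Cas9-1 and 34.8, 35.6 and 29.8 FPKM in ZH11. All knockout libraries were above all ZH11 libraries, and replicate 3 was the lowest of its genotype in both. The knockout mean was 1.54 times the ZH11 mean, and the log2 fold change was 0.61 (SE 0.10, limma adjusted p = 0.00873). The call was lost in 1 of 16 alternatives, without ZH11-Cas9-1 replicate 2 (adjusted p = 0.0508).

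In ZH11-OE-1 *EXPA7* lay between the other genotypes, at 41.0, 40.2 and 41.9 FPKM, with libraries that overlapped with neither. Against ZH11 its log2 fold change was 0.29 (SE 0.10, 95% interval 0.07 to 0.52, limma adjusted p = 0.0832). It passed there after median-of-ratios rescaling (adjusted p = 0.0353). Against ZH11-Cas9-1 its log2 fold change was -0.31 (SE 0.10, 95% interval -0.54 to -0.08, limma adjusted p = 0.0515), and this passed in 5 of 16 alternatives. These were a minimum of 5 FPKM (adjusted p = 0.0454), a fit of those groups alone (0.0463), the replicate block over 9 libraries (0.0402), limma voom (0.0389) and the fit without ZH11-Cas9-1 replicate 3 (0.0180).

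*EXPA5* (Os02g0744200, chromosome 2), another α-expansin, was also higher in the knockout line, but less securely. It had 9.05, 5.96 and 9.74 FPKM in ZH11-OE-1, 13.1, 20.02 and 17.6 FPKM in ZH11-Cas9-1, and 6.94, 12.5 and 6.60 FPKM in ZH11. The knockout libraries were above all others, while ZH11 replicate 2, at 12.5 FPKM, came close to the lowest of them. The knockout mean was 1.95 times the ZH11 mean, and the log2 fold change was 0.92 (SE 0.24, 95% interval 0.38 to 1.46, limma adjusted p = 0.0434).

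Blocked by replicate number over the 9 libraries, the *EXPA5* call was lost (adjusted p = 0.0620), and with the block in a fit of the knockout and ZH11 libraries alone it was kept (adjusted p = 0.0133). It was also lost without ZH11-Cas9-1 replicate 2 or 3 (adjusted p = 0.163 and 0.104) and without ZH11 replicate 1 or 3 (adjusted p = 0.107 and 0.149). Further losses came with no minimum (limma adjusted p = 0.0813), in a fit of those groups alone (0.0706) and with no trend (0.0565). The call was kept in 8 of 16 alternatives. In ZH11-OE-1, *EXPA5* was 0.488 times its level in ZH11-Cas9-1, and the log2 fold change was -0.96 (SE 0.24, limma adjusted p = 0.0192), and this call was lost without ZH11-OE-1 replicate 2 (adjusted p = 0.0804) or ZH11-Cas9-1 replicate 2 (adjusted p = 0.0753). Between ZH11-OE-1 and ZH11 the difference was -0.04 on the log2 scale, with a 95% interval from -0.58 to 0.50 that leaves room for a change of either sign.

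*EXPA1*, *EXPA4* and *EXPA10* did not pass in any comparison. *EXPA1* (Os04g0228400, chromosome 4) had 1.89, 1.41 and 0.859 FPKM in ZH11-OE-1, 2.91, 3.03 and 1.86 FPKM in ZH11-Cas9-1, and 2.42, 2.04 and 3.41 FPKM in ZH11. These levels rest on 16 to 61 reads per library. The ZH11-OE-1 libraries were below all ZH11 libraries and overlapped those of ZH11-Cas9-1 by 1 library of each line, at 1.89 and 1.86 FPKM. Against ZH11 the log2 fold change was -0.61 (SE 0.21, 95% interval -1.07 to -0.14, limma adjusted p = 0.0794), and -0.96 on the recovered reads, where the added 1 FPKM does not shrink it (adjusted p = 0.0786 by limma voom). Against ZH11-Cas9-1 it was -0.60 (adjusted p = 0.0616 by limma), and it passed without ZH11-OE-1 replicate 1 (adjusted p = 0.0460) or ZH11-Cas9-1 replicate 3 (adjusted p = 0.0349).

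*EXPA4* (Os05g0477600, chromosome 5), an α-expansin that promotes seedling growth in rice, varied least among the α-expansins in the ratio of its genotype means. It had 54.1, 49.7 and 56.3 FPKM in ZH11-OE-1, 61.9, 52.2 and 51.0 FPKM in ZH11-Cas9-1, and 64.2, 59.9 and 55.6 FPKM in ZH11. The libraries of all 3 genotypes overlapped. The 95% interval of the log2 fold change against ZH11 ran from -0.38 to 0.05 in ZH11-OE-1 and from -0.34 to 0.09 in ZH11-Cas9-1. *EXPA10* (Os04g0583500, chromosome 4), which responds to aluminium in rice roots, had 10.6, 11.2 and 11.2 FPKM in ZH11-OE-1, 11.7, 12.8 and 14.2 FPKM in ZH11-Cas9-1, and 14.0, 13.9 and 12.1 FPKM in ZH11. ZH11-OE-1 was below both other genotypes in every library, with a log2 fold change against ZH11 of -0.25 (SE 0.10, limma adjusted p = 0.122).

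**Figure D2:**
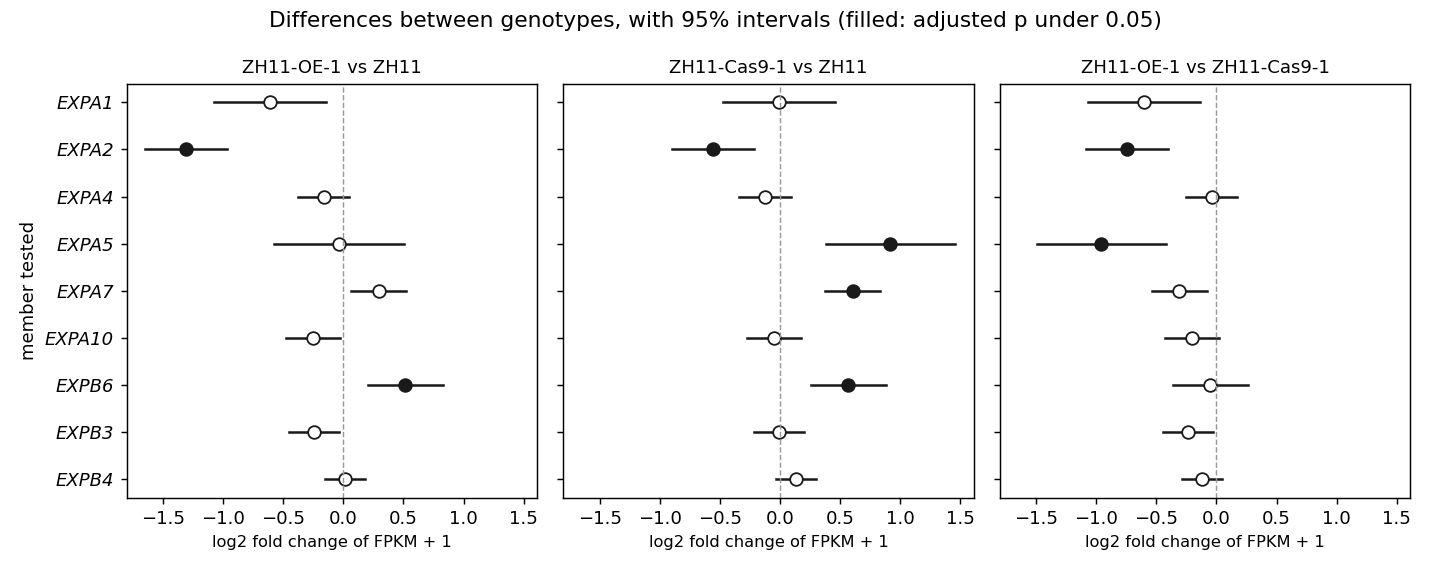
Log2 fold change of each tested expansin gene on the log2(FPKM + 1) scale, with its 95% interval, in the 3 comparisons (filled points, adjusted p under 0.05). *EXPA2* lies lowest against ZH11, at -1.31 in ZH11-OE-1 and -0.56 in ZH11-Cas9-1, while *EXPA5* stands at 0.92 in ZH11-Cas9-1 and -0.04 in ZH11-OE-1.

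On chromosome 10 the β-expansin genes *EXPB6* (Os10g0555600), *EXPB2* (Os10g0555700), *EXPB3* and *EXPB4* follow each other, with no other gene between them in the RefSeq assembly ASM3414082v1. The annotation used for the FPKM also holds Os10g0555651 and Os10g0556000, whose identifiers fall between theirs. These averaged 0 and 0.0212 FPKM over the libraries. The levels of the β-expansin genes did not move together. *EXPB6*, known like *EXPB3* from gibberellin-treated internodes, had 7.87, 8.83 and 7.83 FPKM in ZH11-OE-1, 7.18, 10.3 and 8.25 FPKM in ZH11-Cas9-1, and 5.50, 6.19 and 4.63 FPKM in ZH11. All libraries of both transgenic lines were above all ZH11 libraries. The mean was 1.503 times that of ZH11 in ZH11-OE-1, and the log2 fold change was 0.52 (SE 0.14, limma adjusted p = 0.0373), and 1.58 times in ZH11-Cas9-1, and the log2 fold change was 0.57 (SE 0.14, limma adjusted p = 0.0354).

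Neither *EXPB6* call was secure. That in ZH11-OE-1 was kept in 9 of 16 alternatives and was lost without replicate 1, 2 or 3 of ZH11-OE-1 (adjusted p = 0.0732, 0.123 and 0.0737) or replicate 1 or 3 of ZH11 (adjusted p = 0.0951 and 0.0860). That in ZH11-Cas9-1 was kept in 10 of 16 and was lost without replicate 2 or 3 of ZH11-Cas9-1 (adjusted p = 0.139 and 0.0725) or replicate 1 or 3 of ZH11 (adjusted p = 0.0678 and 0.125). Between the lines the log2 difference was -0.05, with a 95% interval of -0.36 to 0.26.

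*EXPB2*, a β-expansin that acts in rice root growth, was the lowest and differed in the other direction. It had 0.0533, 0.489 and 0.0484 FPKM in ZH11-OE-1, 0.297, 0.161 and 0.167 FPKM in ZH11-Cas9-1, and 1.09, 0.788 and 1.26 FPKM in ZH11. These are 1, 10 and 1 reads, 6, 3 and 3 reads, and 21, 15 and 25 reads in the same libraries. Every library of both lines was below every ZH11 library, and 10 of the 12 reads of ZH11-OE-1 came from replicate 2. Summed over 3 libraries there were 12 reads in ZH11-OE-1, against 12 in ZH11-Cas9-1 and 61 in ZH11.

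Per read counted, the *EXPB2* rate in ZH11-OE-1 was 0.191 times that of ZH11 (exact 95% interval 0.0935 to 0.358), and in ZH11-Cas9-1 0.201 times (0.0987 to 0.378), intervals that cover counting error only. *EXPB2* was below the minimum for the test, with a mean of 0.484 FPKM. With no minimum, its log2 fold change was -0.79 in ZH11-OE-1 (SE 0.14, limma adjusted p = 0.0194) and -0.76 in ZH11-Cas9-1 (SE 0.14, limma adjusted p = 0.0280). The sources do not give how reads matching more than 1 of these neighbouring genes were counted, so the low level of *EXPB2*, beside 5941 to 7559 reads of *EXPB3* per library, is uncertain.

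*EXPB3* and *EXPB4*, both known from the elongating internodes of deepwater rice, changed little. *EXPB3* had 335.5, 278.8 and 287.3 FPKM in ZH11-OE-1, 359.9, 335.8 and 363.9 FPKM in ZH11-Cas9-1, and 367.0, 342.2 and 354.2 FPKM in ZH11. ZH11-OE-1 was below ZH11 in every library, by less than the range within ZH11-OE-1, and the log2 fold change was -0.24 (SE 0.09, limma adjusted p = 0.112). It was -0.24 also against ZH11-Cas9-1 (adjusted p = 0.0909 by limma), and this passed without ZH11-OE-1 replicate 1 (adjusted p = 0.0440). Between ZH11-Cas9-1 and ZH11 the difference was -0.01, with a 95% interval of -0.21 to 0.20.

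*EXPB4* had 195.1, 187.0 and 186.3 FPKM in ZH11-OE-1, 207.1, 207.6 and 204.5 FPKM in ZH11-Cas9-1, and 195.7, 190.2 and 177.6 FPKM in ZH11. The knockout libraries were above all others. Their log2 fold change against ZH11 was 0.14 (SE 0.07, 95% interval -0.03 to 0.30, limma adjusted p = 0.283), and that of ZH11-OE-1 was 0.01 (95% interval -0.15 to 0.18). The ratio of *EXPB3* to *EXPB4* was 1.58 ± 0.12 in ZH11-OE-1, against 1.71 ± 0.084 in ZH11-Cas9-1 and 1.89 ± 0.098 in ZH11 (SD, n = 3 each). This ratio is given as a description, with no test.

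**Figure D3:**
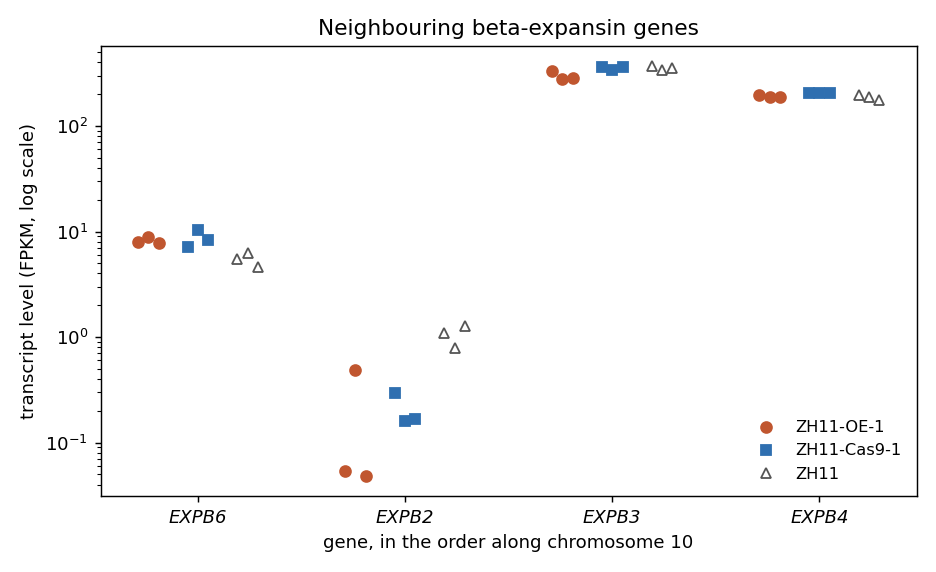
FPKM of *EXPB6*, *EXPB2*, *EXPB3* and *EXPB4* in their order on chromosome 10, on a log axis (points, libraries of ZH11-OE-1, ZH11-Cas9-1 and ZH11 from left to right). *EXPB2* lies at 0.0484 to 0.489 FPKM in ZH11-OE-1, 0.161 to 0.297 FPKM in ZH11-Cas9-1 and 0.788 to 1.26 FPKM in ZH11, between neighbours that reach 10.3 and 367.0 FPKM.

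Separation of libraries is a weaker criterion than the test. Of the 9 tested expansins, 6 did not overlap between ZH11-OE-1 and ZH11, beside 33.8% of all tested genes, and 5 did not between ZH11-Cas9-1 and ZH11, beside 30.2%. Between ZH11-OE-1 and ZH11-Cas9-1, 6 of 9 did not overlap, all lower in ZH11-OE-1, beside 43.9% of all tested genes (5464 of them lower and 4087 higher). An exact permutation test of 3 libraries against 3 cannot give a p below 0.1, so such separation passes no threshold by itself.

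The summed level of the 6 α-expansins was 158, 144 and 156 FPKM in ZH11-OE-1, 216, 204 and 189 FPKM in ZH11-Cas9-1, and 243, 198 and 202 FPKM in ZH11. ZH11-OE-1 was below both other genotypes in every library, and ZH11-Cas9-1 overlapped with ZH11. Of the difference of -61.4 FPKM between the means of ZH11-OE-1 and ZH11, *EXPA2* made up -58.6 FPKM. Between ZH11-Cas9-1 and ZH11 the sum differed by -11.4 FPKM, with -32.3 FPKM from *EXPA2* set against 18.0 FPKM from *EXPA7* and 8.23 FPKM from *EXPA5*.

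The share of each gene in the α-expansin signal also varied between the genotypes. *EXPA2* held 24.6% of the sum in ZH11-OE-1 (range 23.1 to 26.2%), 31.5% in ZH11-Cas9-1 (29.8 to 33.1%) and 44.6% in ZH11 (37.5 to 49.6%). *EXPA7* held 26.9%, 25.3% and 15.7% in the same order of genotypes. The sum of the 4 β-expansins of chromosome 10 was 498 ± 34.9 FPKM in ZH11-OE-1, 568 ± 12.6 FPKM in ZH11-Cas9-1 and 549 ± 17.8 FPKM in ZH11 (SD, n = 3 each), and ZH11-OE-1 overlapped with ZH11. These sums are descriptions, with no test.

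**Figure D4:**
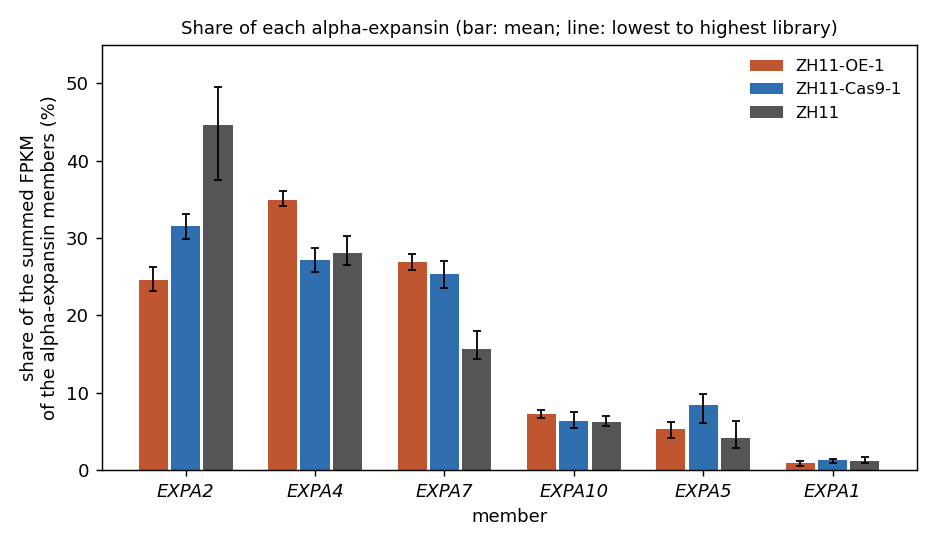
Share of the summed FPKM of 6 α-expansin genes held by each gene, in percent, as the mean of 3 libraries of ZH11-OE-1, ZH11-Cas9-1 and ZH11. *EXPA2* holds 24.6% in ZH11-OE-1, against 31.5% in ZH11-Cas9-1 and 44.6% in ZH11.

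Further wall genes were read as whole lists of identifiers written from background knowledge, since no source used here pairs the single identifiers with names. Of 22 other expansin identifiers 12 were tested. In ZH11-OE-1 against ZH11, 4 were higher and 1 was lower, with a median log2 fold change of 0.15 (all genes, -0.04). In ZH11-Cas9-1 against ZH11, 4 were higher, with a median of 0.53 (all genes, -0.02). Over all 21780 tested genes, 820 were higher and 2179 lower in the ZH11-OE-1 comparison. In the ZH11-Cas9-1 comparison 1090 were higher and 782 lower. The counts of these other expansins were not stable. In ZH11-OE-1, 0 were higher without ZH11-OE-1 replicate 3, without ZH11 replicate 1 or in the 2-group replicate block, and 1 without ZH11-OE-1 replicate 2. In ZH11-Cas9-1, the higher genes numbered 0 without ZH11-Cas9-1 replicate 2 or ZH11 replicate 3, 1 without ZH11-Cas9-1 replicate 3 or in a fit of those groups alone, 7 after median-of-ratios or quantile scaling and 8 in the 2-group replicate block. Their summed level was 208 to 241 FPKM in ZH11-OE-1, 214 to 255 FPKM in ZH11-Cas9-1 and 143 to 199 FPKM in ZH11, above ZH11 in every library of both lines, whereas the sum of the 6 α-expansins described above was not.

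Plasma membrane H+-ATPases pump protons into the wall and set the pH at which expansins act. Of 10 listed, 4 were tested, and 0 passed in either line against ZH11 by limma (at unadjusted p under 0.05, 0 in ZH11-OE-1 and 2, lower, in ZH11-Cas9-1). By limma voom 0 passed in either, and after quantile normalization 1 passed in ZH11-Cas9-1, lower. Of 6 cellulose synthases of the primary wall, which extends with the cell, 1 passed in ZH11-OE-1, lower, and 0 in ZH11-Cas9-1 by limma (3 lower at unadjusted p under 0.05, and 2 lower by limma voom or after quantile normalization). The call in ZH11-OE-1 was lost in most alternatives, both rescalings and both replicate blocks included. Of 3 cellulose synthases of the secondary wall, laid down after growth stops, 3 were lower in ZH11-OE-1 (median log2 fold change -0.66) and 2 in ZH11-Cas9-1 (median -0.58). Lower calls against ZH11 numbered 2179 in ZH11-OE-1 and 782 in ZH11-Cas9-1 among all 21780 tested genes. In ZH11-OE-1 the secondary-wall count became 0 without ZH11-OE-1 replicate 3, without ZH11 replicate 1 or in the 2-group replicate block. In ZH11-Cas9-1 it became 0 without ZH11-Cas9-1 replicate 2 or 3, without ZH11 replicate 1 or 3 or with no minimum. The summed level of these 3 synthases was 124 to 173 FPKM in ZH11-OE-1, 141 to 167 FPKM in ZH11-Cas9-1 and 197 to 284 FPKM in ZH11.

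Markers of tissues in the panicle were read beside these results. All 12 spikelet MADS genes were tested and their summed level was 1633 to 1910 FPKM in ZH11-OE-1, 1675 to 1808 in ZH11-Cas9-1 and 1735 to 1935 in ZH11. Of 9 tapetum genes, which mark the nursing layer of the anther, 5 were higher in ZH11-OE-1 and 6 in ZH11-Cas9-1 against ZH11. Of the expansins called against ZH11, *EXPB6* lay on this side in both lines, and *EXPA5* and *EXPA7* in ZH11-Cas9-1. *EXPA2* lay on the other side in both. At unadjusted p under 0.05 by limma, 1 tapetum gene was lower in each line. The tapetum median log2 fold changes were 0.47 and 0.83 (all genes, -0.04 and -0.02). Of all 21780 tested genes, 820 and 1090 were higher in the same comparisons. The tapetum count was 3 without any 1 library of ZH11-OE-1 in that line, and in ZH11-Cas9-1 it was 1 without ZH11-Cas9-1 replicate 1 or 2, without ZH11 replicate 3 or in a fit of those groups alone. Of 8 photosynthesis genes, 6 fell in ZH11-OE-1 against ZH11 and 6 against ZH11-Cas9-1. *EXPA2* was called lower in both comparisons, *EXPA5* lower against ZH11-Cas9-1 only, and *EXPB6* higher against ZH11. Of all 21780 tested genes, 2179 and 3437 were lower in these comparisons. In ZH11-Cas9-1 against ZH11, 0 photosynthesis genes passed. In ZH11-OE-1 against ZH11 the photosynthesis count was 1 without ZH11-OE-1 replicate 2, without ZH11 replicate 1 or in the 2-group replicate block. Between the lines it was 1 without replicate 2 of either line. Their summed level was 4767 to 5724 FPKM in ZH11-OE-1, 7710 to 8619 FPKM in ZH11-Cas9-1 and 7298 to 10059 FPKM in ZH11.

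The summed tapetum level overlapped between all genotypes, at 2657 to 3280 FPKM in ZH11-OE-1, 3060 to 4469 FPKM in ZH11-Cas9-1 and 2699 to 4186 FPKM in ZH11. The 5 meiocyte markers, of which 3 were tested, summed to 27.2 to 36.3 FPKM in ZH11-OE-1, 19.5 to 26.0 FPKM in ZH11-Cas9-1 and 19.2 to 25.2 FPKM in ZH11. No listed marker was at 0 in all libraries. The part of these markers in the expansin differences was not tested.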

How the data were processed

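RNA was sequenced from panicles of ZH11-OE-1, ZH11-Cas9-1 and ZH11, 3 libraries each, and all 9 were grouped by their labels. The authors mapped reads to IRGSP-1.0 with HISAT2, counted them per gene with featureCounts, used DESeq2, and deposited FPKM per gene. The formula of the FPKM and the strand setting are not given in the sources used here. Values of overlapping genes and of close copies are therefore uncertain. Columns of no sample were 0 in number.

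The members are the 10 expansin identifiers given above, each described in every library. They, the lists and the tests were chosen with earlier results of these data known. The files pair no identifier with a symbol. All 10 symbols were found in the RefSeq table (assembly ASM3414082v1, another build, used for names and neighbours only), each on the chromosome that its identifier states.

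The test was limma 3.58.1 (R 4.3.3) on log2(FPKM + 1), with 1 fit over 9 libraries, a mean per genotype, a trend and two-sided tests. Fold changes on this scale understate changes of low genes. Genes averaging 1 FPKM or more (21780) were tested, and called at a Benjamini-Hochberg adjusted p under 0.05. The deposited values are FPKM and not counts, and DESeq2 was not run again on the recovered reads. The script was tested on simulated data. Every FPKM of a tested gene gave whole reads within 0.001 of a read, which gave the depths and, for *EXPB2*, an exact conditional interval. Tables and plots were made with pandas 2.3.3, numpy 2.4.6 and matplotlib 3.10.9 under Python 3.11.15.

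Across genes, deviations from the genotype mean correlated between same-numbered ZH11-Cas9-1 and ZH11 libraries (r from 0.234 to 0.316). Differently numbered libraries of these genotypes reached -0.0218 at most. Between ZH11-OE-1 and ZH11, differently numbered libraries reached 0.274, and same-numbered ones 0.0234. An r of this size therefore does not establish pairs, and no label names what the numbers share. The main test used no replicate block, and the blocks were run as alternatives only.

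The alternatives were a pseudocount of 0.1, no minimum, a minimum of 5 FPKM, median-of-ratios and quantile scaling, 2 groups only, a replicate block (9 libraries or 2 groups), no trend, each library of the compared groups left out, and, chosen after seeing the data, limma voom on the recovered reads.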

Additional observations from a re-analysis of the deposited data

How the results depend on the processing

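The number of expansins past the test depended on the setting most in ZH11-Cas9-1 against ZH11, where it was 4 of 9, 2 of 10 with no minimum FPKM (*EXPA7* and *EXPB2*, so 1 of the 9), 2 of 9 with no trend, 1 in a fit of those groups alone, and 0 to 4 with 1 library left out. In ZH11-OE-1 against ZH11 it was 2, and 1 to 2 with 1 library left out. After median-of-ratios rescaling it was 3, with *EXPA7* added. It was 1 with the replicate block in a fit of those groups, and 2 of 10 with no minimum FPKM (*EXPA2* and *EXPB2*). Between ZH11-OE-1 and ZH11-Cas9-1 it was 2, and 1 to 4 with 1 library left out. In ZH11-OE-1 against ZH11 the replicate block in a 2-group fit ended the *EXPB6* call (adjusted p = 0.0682 by limma). Between the lines it brought *EXPA7* past the test over 9 libraries (adjusted p = 0.0402 by limma) and *EXPA1* in the 2-group fit (adjusted p = 0.0334 by limma). It ended no other call but that of *EXPA5* in ZH11-Cas9-1 given above. Over all genes, calls numbered 2999 in ZH11-OE-1 against ZH11 (1245 with that 2-group block, and as few as 1090, without ZH11-OE-1 replicate 2), 1872 in ZH11-Cas9-1 against ZH11 (1202 with no minimum, 960 in the fit of those groups alone, 2705 with the replicate block in that fit, 1807 with the block over 9 libraries, and as few as 417, without ZH11-Cas9-1 replicate 2) and 5198 between the lines (as few as 2336, without ZH11-OE-1 replicate 2).

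Log2 fold changes changed sign only for genes past no test in that comparison. In ZH11-OE-1 against ZH11, *EXPA5* was 0.014 with median-of-ratios and 0.04 with quantile scaling, and -0.19 to 0.23 with 1 library left out, and *EXPB4* was -0.027 to 0.043 with 1 left out. In ZH11-Cas9-1 against ZH11, *EXPB3* was 0.0053 with median-of-ratios scaling and -0.030 to 0.030 with 1 left out, *EXPA1* was -0.13 to 0.15 and *EXPA10* -0.11 to 0.018 with 1 left out. Between ZH11-OE-1 and ZH11-Cas9-1, *EXPA4* was 0.0064 with median-of-ratios and 0.0088 with quantile scaling and -0.091 to 0.046 with 1 left out, and *EXPB6* was 0.045 with quantile scaling and -0.16 to 0.076 with 1 left out. Of the alternative values of single genes, 367 kept side and sign, 34 lost a call, 10 gained one and 18 changed sign, and the cause was not tested. Depth limits *EXPA1* and *EXPB2*, with at most 61 and 25 reads per library. The repeats, of 1 line per genotype, limit what the p-values measure to the spread between these samples.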
